A study of Homo sapiens with 20 samples.

Results

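SESN1, SESN2, SESN3, PRKAB1, DRAM1, ACER2 and TIGAR are genes that p53 is known to act on and that control nutrient sensing, autophagy, sphingolipid turnover and sugar use. These 7 genes were chosen by name and not by a cut on their values, but with earlier results of these data known. They are 7 of the 26485 gene rows in the deposited tables. The 7 genes were followed in HCT116 cells, a human colorectal carcinoma line described as wild type, at 3 hours in 4 conditions. Nutlin_Peg6 cells were electroporated with 10 µM of a bivalent stapled peptide, received a further 200 nM of it in the medium, and were exposed to 10 µM Nutlin-3a. Nutlin_H2O cells were electroporated with water and exposed to 10 µM Nutlin-3a. DMSO_Peg6 cells received the peptide in both ways without Nutlin-3a, and DMSO_H2O cells received water without Nutlin-3a. The medium of all 4 conditions held 0.1% DMSO according to the protocol, and all cells were electroporated. Each condition had 2 libraries in experiment 1 and 3 in experiment 2, which gives 20 libraries. RNA came from isolated nuclei, was depleted of ribosomal RNA and was made into libraries with a directional kit. All results come from a single cell line, and the labels do not say whether replicates were separate cultures, so the p-values may measure only technical spread.

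Nutlin-3a fills the pocket of MDM2 that holds p53, so that p53 escapes degradation and accumulates. The study asked whether a peptide that keeps p53 from binding Mediator, the coactivator complex that links activators to RNA polymerase II, changes the p53 response. Sestrins are stress proteins that restrain the kinase complex mTORC1: they bind GATOR2, and SESN2 senses leucine there. They also associate with AMPK, the energy-sensing kinase that turns on autophagy, and PRKAB1 encodes its beta-1 regulatory subunit. DRAM1 is a lysosomal membrane protein that promotes autophagy, ACER2 is a Golgi ceramidase that releases sphingosine from ceramide, and TIGAR lowers fructose-2,6-bisphosphate and so diverts glucose towards the pentose phosphate pathway. SESN3 is best known as a target of FOXO transcription factors.

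RefSeq lists 9 start-site windows for the 7 genes, each of 300 bases around a start and mostly upstream of it (GRCh38.p14). A p53 half-site, the 10-base consensus searched by name on both strands, was in 1 of these 9 windows, against 6.63% of all 35116 RefSeq windows of the same length. That window belongs to SESN1, at chr6:109008939-109009238 on the minus strand. Its half-site begins at position -49 from the start, and the 10 bases that follow it directly form a second half-site with 3 mismatches. Such an adjacent pair, with at most 3 mismatches and its first half-site included, was in 1.12% of all windows. The SESN1 row counted in the tables begins 7530 bases downstream of that start, and so leaves out the stretch next to it. The SESN1 window is shown because it holds the match (pair in capitals), and the windows of SESN2 (chr1:28259268-28259567, plus strand), PRKAB1 (chr12:119667883-119668182, plus strand) and DRAM1 (chr12:101877330-101877629, plus strand) because these genes had the highest mean change or the smallest p-values with Nutlin-3a and no match in their windows.
SESN1: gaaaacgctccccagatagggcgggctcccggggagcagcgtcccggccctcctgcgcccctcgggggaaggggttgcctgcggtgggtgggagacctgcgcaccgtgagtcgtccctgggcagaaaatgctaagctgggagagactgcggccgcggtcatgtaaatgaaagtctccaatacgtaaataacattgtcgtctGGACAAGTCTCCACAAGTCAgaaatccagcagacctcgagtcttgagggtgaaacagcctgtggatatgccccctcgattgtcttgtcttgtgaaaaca
SESN2: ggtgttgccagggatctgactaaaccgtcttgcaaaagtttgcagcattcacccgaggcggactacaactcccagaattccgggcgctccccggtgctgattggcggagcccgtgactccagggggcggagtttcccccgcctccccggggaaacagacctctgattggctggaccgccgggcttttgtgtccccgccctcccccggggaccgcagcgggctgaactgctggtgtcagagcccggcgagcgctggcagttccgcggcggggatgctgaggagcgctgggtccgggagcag
PRKAB1: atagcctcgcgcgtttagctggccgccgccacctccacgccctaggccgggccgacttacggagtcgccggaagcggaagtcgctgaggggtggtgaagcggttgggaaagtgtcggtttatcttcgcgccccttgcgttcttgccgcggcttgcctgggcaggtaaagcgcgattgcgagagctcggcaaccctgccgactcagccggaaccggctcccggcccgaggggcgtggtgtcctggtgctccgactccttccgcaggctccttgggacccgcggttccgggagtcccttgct
DRAM1: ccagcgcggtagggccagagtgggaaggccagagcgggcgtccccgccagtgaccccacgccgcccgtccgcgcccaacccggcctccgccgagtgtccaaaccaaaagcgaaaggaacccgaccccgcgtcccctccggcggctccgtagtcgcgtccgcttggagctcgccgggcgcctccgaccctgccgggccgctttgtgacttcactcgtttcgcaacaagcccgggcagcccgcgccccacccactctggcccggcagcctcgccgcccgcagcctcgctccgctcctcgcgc
A match is a string of letters and not a measured binding site, and a window without one says nothing about p53 binding elsewhere in the gene. The GC content of the 9 windows ran from 45.0% in SESN3 to 78.0% in TIGAR, against a median of 58.7% over all windows.

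Values are given as scaled RPM: RPM is the share of a library's row reads that fall in a gene's row, in the usual units of reads per 1e6, and is here brought to a common scale between libraries. The libraries held 36717795 to 63896604 reads in the rows in experiment 1 and 18787172 to 47407746 in experiment 2. Each of the 7 genes had at least 30 reads in every library. The epithelial markers KRT8 and EPCAM averaged 1385 and 239 scaled RPM and CDX2 12.1, while VIL1 averaged 0.194. The blood marker PTPRC averaged 0.0265. COL1A2 and COL3A1 averaged 0.000937 and 0.0256 scaled RPM, but COL1A1 averaged 29.6. Replicate 2 of Nutlin_H2O stood apart within experiment 1: its correlation over genes with replicate 1 was 0.955, against 0.992 to 0.997 in the other conditions of that experiment, and 43.5% of its reads lay in its 10 most abundant rows. In experiment 2 all replicates of a condition correlated less, at 0.933 to 0.946. Rows of structural RNA held 17.0% to 26.4% of row reads in experiment 1 and 1.67% to 5.29% in experiment 2. Libraries with the same replicate number deviated together within each experiment, so each result is also given per same-numbered pair. In bulk RNA, fewer responding cells and less RNA per cell cannot be told apart.

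Per kilobase of the counted row, PRKAB1 had the highest mean level over the 20 libraries, 1.36 ± 0.36 scaled RPM per kb (SD, n = 20). SESN2 followed at 1.16 ± 0.62, SESN1 at 0.799 ± 0.48 and TIGAR at 0.590 ± 0.17 scaled RPM per kb. DRAM1 averaged 0.279 ± 0.12, SESN3 0.172 ± 0.15 and ACER2 0.148 ± 0.12 scaled RPM per kb. The ranges of 1 SD around the means of neighbours in this order overlapped, except for TIGAR and DRAM1. Rows cover different parts of the genes: SESN1's spans 15.0 kb of a 111 kb gene and SESN3's 26.0 kb of 67.0 kb, whereas PRKAB1's spans 12.4 kb of 13.7 kb.

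**Figure D1:**
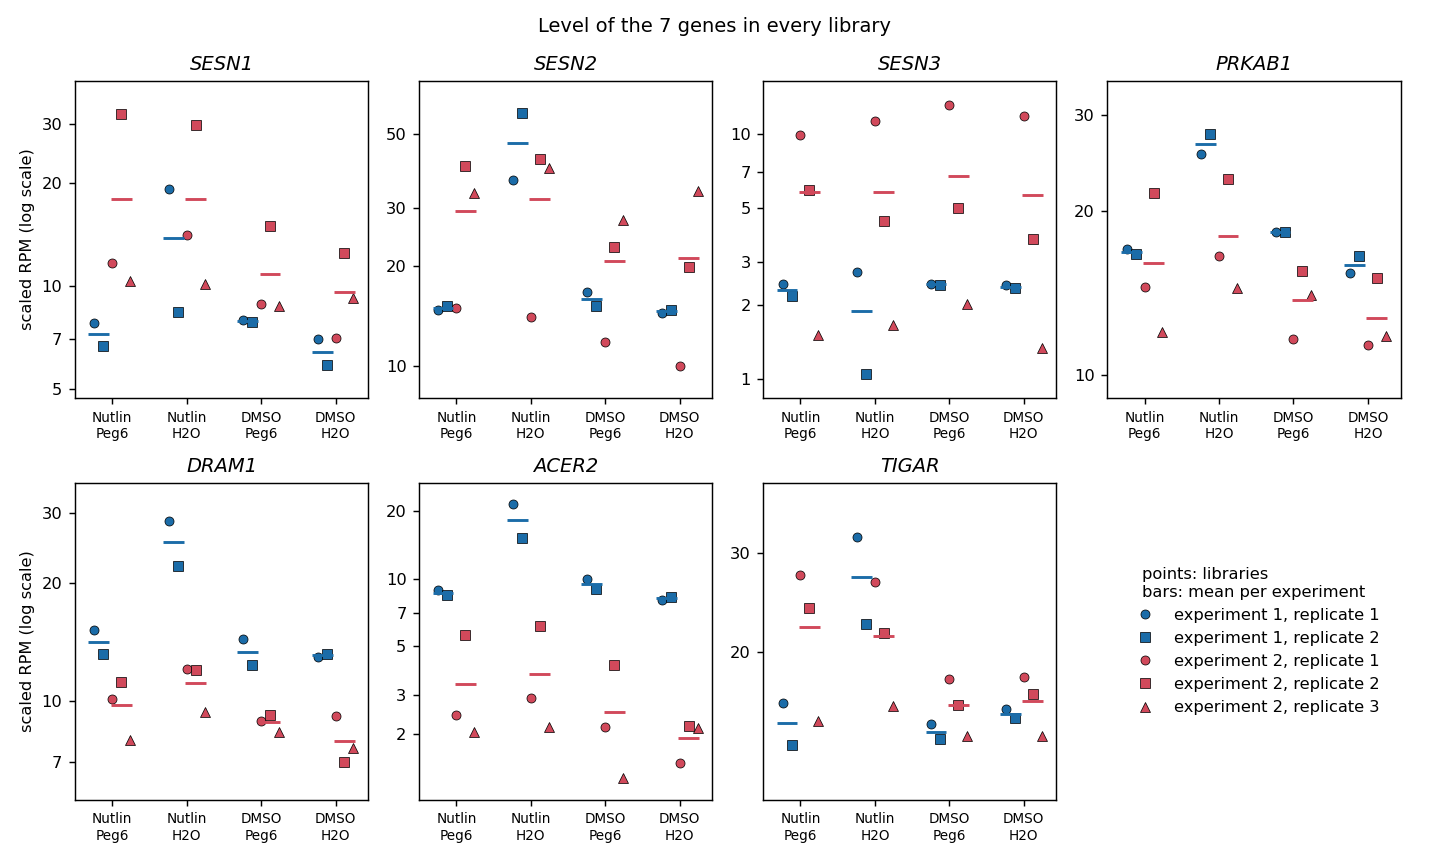
Level of each of the 7 genes in all 20 libraries, in scaled RPM on a log axis, with conditions along the horizontal axis; points are libraries, bars are means per experiment, colour marks the experiment and shape the replicate number. In experiment 1 the Nutlin_H2O points lie above the other 3 conditions for every gene but SESN3, while in experiment 2 Nutlin_H2O and DMSO_H2O overlap for every gene but DRAM1, and SESN3 follows the replicate number, with means of 11.5, 4.76 and 1.63.

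The first comparison asked what Nutlin-3a did in cells without peptide. SESN1, SESN2, PRKAB1, DRAM1, ACER2 and TIGAR were higher in Nutlin_H2O than in DMSO_H2O cells in 5 of 5 same-numbered pairs, as were 3.07% of the 15958 genes tested. The mean changes of these 6 genes ran from 1.43-fold for TIGAR to 1.99-fold for SESN2, and SESN3 averaged 0.952-fold. In limma's test none of the 7 passed an adjusted p of 0.05, nor did any other gene (0% of 15958), and limma-voom without blocks called none. At an unadjusted p of 0.05, 6 of the 7 were higher, against 0.445% of all genes (71 genes). The median log2 change was 0.64 over the 7 genes and -0.02 over all genes. The p53 targets CDKN1A, which encodes the cell cycle inhibitor p21, and MDM2 served as the check of p53 activation: CDKN1A averaged 2.26-fold and MDM2 1.95-fold, each higher in 5 of 5 pairs. The log2 change of CDKN1A was 1.94 in experiment 1 and 0.66 in experiment 2, and that of MDM2 was 1.24 and 0.78. Their unadjusted p in limma's test was 0.000655 for CDKN1A and 0.0877 for MDM2.

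Among the sestrins, SESN1 was at 19.3 and 8.38 scaled RPM in Nutlin_H2O cells of experiment 1 and at 14.1, 29.8 and 10.1 in those of experiment 2, against 6.97 and 5.86 and then 7.06, 12.5 and 9.24 scaled RPM in DMSO_H2O cells. The Nutlin_H2O libraries were all above the DMSO_H2O ones in experiment 1 and overlapped them in experiment 2, where replicate 3 was almost level between the conditions. The separation in experiment 1 rests on the scaling. In unscaled RPM the Nutlin_H2O library that stood apart was at 5.74, below the 6.45 of DMSO_H2O replicate 1. The log2 change of SESN1 was 0.84 ± 0.33 (SE, n = 5 per condition), with 0.94 in experiment 1 and 0.77 in experiment 2. SESN2 was at 36.4 and 57.6 scaled RPM in Nutlin_H2O cells of experiment 1 and at 14.0, 41.9 and 39.5 in experiment 2, against 14.5 and 14.8 and then 10.0, 19.9 and 33.6 scaled RPM in DMSO_H2O cells. Again the groups were separate in experiment 1 and overlapped in experiment 2, and the DMSO_H2O level itself was far higher in replicate 3 than in replicate 1 there. The log2 change of SESN2 was 0.99 ± 0.38 (SE), 1.61 in experiment 1 and 0.58 in experiment 2. SESN3 had no common direction: it was higher in 3 pairs and lower in 2, with a log2 change of -0.07 ± 0.55 (SE) and a 95% interval from -1.24 to 1.10. Its Nutlin_H2O values were 2.74 and 1.04 scaled RPM in experiment 1 and 11.3, 4.40 and 1.66 in experiment 2, against 2.41 and 2.35 and then 11.8, 3.74 and 1.34 in DMSO_H2O cells. The lowest SESN3 value of all 20 libraries was that of the Nutlin_H2O library that stood apart.

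PRKAB1 and DRAM1, the AMPK subunit and the autophagy gene, had the smallest unadjusted p-values of the 7, at rank 12 and rank 4 of 15958 genes. PRKAB1 was at 25.4 and 27.7 scaled RPM in Nutlin_H2O cells of experiment 1 and at 16.5, 22.9 and 14.4 in experiment 2, against 15.4 and 16.5 and then 11.3, 15.0 and 11.8 scaled RPM in DMSO_H2O cells. Its ratios within pairs were the most even of the 6 genes that were higher in every pair, from 1.23 to 1.68, and its log2 change was 0.57 ± 0.17 (SE, n = 5 per condition). DRAM1 was at 28.7 and 22.1 scaled RPM in Nutlin_H2O cells of experiment 1 and at 12.1, 11.98 and 9.38 in experiment 2, against 13.0 and 13.2 and then 9.20, 7.04 and 7.63 scaled RPM in DMSO_H2O cells. DRAM1 was the only one of the 7 whose Nutlin_H2O libraries were all above the DMSO_H2O libraries in both experiments, as were 0.175% of all genes. The log2 change of DRAM1 was 0.64 ± 0.15 (SE), 0.92 in experiment 1 and 0.46 in experiment 2.

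ACER2, the ceramidase, was at 21.5 and 15.1 scaled RPM in Nutlin_H2O cells of experiment 1 and at 2.91, 6.13 and 2.16 in experiment 2, against 8.05 and 8.24 and then 1.49, 2.18 and 2.14 scaled RPM in DMSO_H2O cells. The groups were separate in experiment 1 and overlapped in experiment 2, where replicate 3 gave a ratio of 1.01. Its log2 change was 0.86 ± 0.29 (SE, n = 5 per condition). TIGAR was at 32.0 and 22.4 scaled RPM in Nutlin_H2O cells of experiment 1 and at 26.6, 21.6 and 16.0 in experiment 2, against 15.8 and 15.2 and then 18.0, 16.8 and 14.2 scaled RPM in DMSO_H2O cells. TIGAR had the smallest mean change of the 6 genes that were higher in every pair, with a log2 value of 0.52 ± 0.19 (SE). In experiment 1, 6 of the 7 genes had both Nutlin_H2O libraries above both DMSO_H2O libraries, SESN1 only after scaling, against 9.31% of all genes. In experiment 2 DRAM1 alone had all Nutlin_H2O libraries above, against 1.23%. This rule sets 2 libraries against 2 in experiment 1 and 3 against 3 in experiment 2.

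Taking the 5 experiment-and-replicate numbers as blocks left the log2 changes as they were and narrowed their errors. Blocked p-values before adjustment were 2.58e-05 for PRKAB1, 3.48e-05 for DRAM1, 0.000114 for ACER2, 0.000181 for SESN2, 0.000201 for SESN1 and 0.000929 for TIGAR in limma's test, and the same 6 genes were higher at an unadjusted p of 0.05, against 3.5% of all genes. The smallest blocked adjusted p was 0.0674, for PRKAB1 and DRAM1, so no gene was called. With limma-voom on recovered reads and the same blocks, PRKAB1, DRAM1 and ACER2 rose, at an adjusted p of 0.0378 each, among 15 genes called (0.094%). With library weights and blocks, PRKAB1 and DRAM1 rose, at adjusted p of 0.0219 and 0.0250 in limma's test, among 31 genes called (0.194%).

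**Figure D2:**
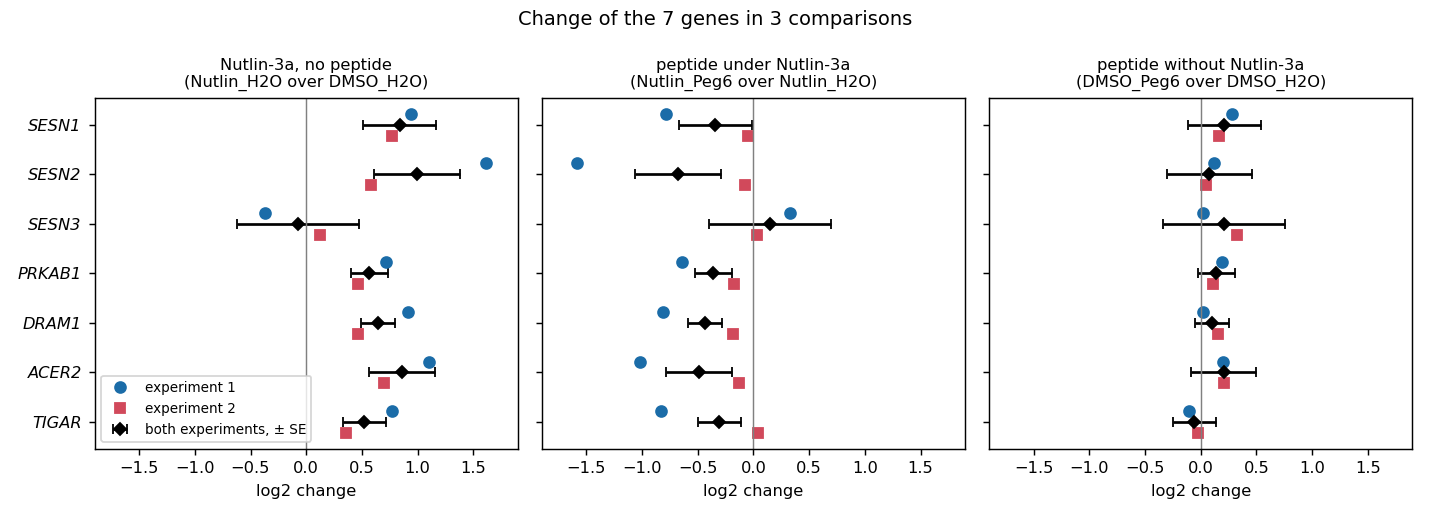
Log2 change of each of the 7 genes with Nutlin-3a alone, with peptide under Nutlin-3a and with peptide alone; diamonds are both experiments together with 1 SE, circles experiment 1 and squares experiment 2. The experiment 1 values lie farther from 0 than those of experiment 2 in the first pair of panels for all genes, and SESN2 has the widest gap, 1.61 against 0.58 and -1.58 against -0.08.

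The second comparison asked what the peptide did to cells that also had Nutlin-3a. All the genes but SESN3 had a lower mean in Nutlin_Peg6 than in Nutlin_H2O cells, from 0.625-fold for SESN2 to 0.807-fold for TIGAR, and SESN3 averaged 1.11-fold. PRKAB1, DRAM1 and ACER2 were lower in 5 of 5 pairs, as were 2.54% of all genes. No gene passed limma's test at an adjusted p of 0.05 (0 of 7, and 0% of all genes). At an unadjusted p of 0.05, PRKAB1 and DRAM1 were lower, 2 of 7 against 0.282% of all genes (45 genes), and limma-voom called none of the 7, with blocks (0.0188% of all genes) or without (0%). The median log2 change was -0.36 over the 7 genes and 0.04 over all genes, while CDKN1A was at 0.603-fold and MDM2 at 0.727-fold. The log2 change of CDKN1A was -1.66 in experiment 1 and -0.11 in experiment 2, and that of MDM2 was -1.11 and -0.03. Their unadjusted p in limma's test was 0.0205 for CDKN1A and 0.401 for MDM2.

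The median log2 change of the 7 genes was -0.81 in experiment 1 and -0.08 in experiment 2. In experiment 1 both Nutlin_Peg6 libraries were below both Nutlin_H2O libraries for the same 6 genes, SESN1 only after scaling, against 11.4% of all genes. In experiment 2 the groups overlapped for all 7, and 0.658% of all genes were separate and below. This rule sets 2 libraries against 2 in experiment 1 and 3 against 3 in experiment 2 and ignores the pairs, so it does not measure the experiments alike. SESN2 was at 14.8 and 15.1 scaled RPM in Nutlin_Peg6 cells of experiment 1, against 36.4 and 57.6 in Nutlin_H2O cells, and so lay as low as the 14.5 and 14.8 of DMSO_H2O cells. In experiment 2 it was at 14.9, 39.9 and 33.2 scaled RPM in Nutlin_Peg6 cells, against 14.0, 41.9 and 39.5 in Nutlin_H2O cells, so that replicates differed far more than conditions. The log2 change of SESN2 was -0.68 ± 0.38 (SE, n = 5 per condition), with -1.58 in experiment 1 and -0.08 in experiment 2. SESN1 was at 7.80 and 6.66 scaled RPM in Nutlin_Peg6 cells of experiment 1 and at 11.6, 32.0 and 10.3 in experiment 2, against 19.3 and 8.38 and then 14.1, 29.8 and 10.1 in Nutlin_H2O cells. Its gap in experiment 1 rests mostly on replicate 1, and replicates 2 and 3 of experiment 2 were slightly higher with the peptide. In unscaled RPM the Nutlin_H2O library that stood apart, at 5.74, was below the 6.43 of Nutlin_Peg6 replicate 1 of experiment 1. The log2 change of SESN1 was -0.34 ± 0.33 (SE). SESN3 was at 2.45 and 2.17 scaled RPM in Nutlin_Peg6 cells of experiment 1 and at 9.90, 5.90 and 1.51 in experiment 2, next to the Nutlin_H2O values above, with a log2 change of 0.15 ± 0.55 (SE).

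PRKAB1 was at 17.0 and 16.7 scaled RPM in Nutlin_Peg6 cells of experiment 1, against 25.4 and 27.7 in Nutlin_H2O cells, and at 14.5, 21.6 and 11.97 in those of experiment 2, against 16.5, 22.9 and 14.4 in Nutlin_H2O cells. DRAM1 was at 15.1 and 13.2 scaled RPM in Nutlin_Peg6 cells of experiment 1, against 28.7 and 22.1 in Nutlin_H2O cells, and at 10.1, 11.2 and 7.96 in those of experiment 2, against 12.1, 11.98 and 9.38 in Nutlin_H2O cells. Both genes were lower in each pair, but the pair ratios of experiment 2, 0.831 to 0.942 for PRKAB1 and 0.841 to 0.934 for DRAM1, were nearer to 1 than those of experiment 1. The log2 changes were -0.36 ± 0.17 (SE) for PRKAB1 and -0.44 ± 0.15 (SE) for DRAM1, and DRAM1 stood at rank 4 of all genes by p-value.

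ACER2 was at 8.85 and 8.42 scaled RPM in Nutlin_Peg6 cells of experiment 1, against 21.5 and 15.1 in Nutlin_H2O cells, and at 2.44, 5.56 and 2.06 in those of experiment 2, against 2.91, 6.13 and 2.16 in Nutlin_H2O cells. TIGAR was at 16.2 and 13.6 scaled RPM in Nutlin_Peg6 cells of experiment 1, against 32.0 and 22.4 in Nutlin_H2O cells, and at 27.4, 23.9 and 15.1 in those of experiment 2, against 26.6, 21.6 and 16.0 in Nutlin_H2O cells. In experiment 1 TIGAR with the peptide was at its DMSO_H2O level, and in experiment 2 it was at its Nutlin_H2O level. The log2 changes were -0.49 ± 0.29 (SE) for ACER2 and -0.31 ± 0.19 (SE) for TIGAR.

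With replicate blocks, 5 of the 7 genes (SESN2, PRKAB1, DRAM1, ACER2 and TIGAR) were lower at an unadjusted p of 0.05, against 3.41% of all genes, and the adjusted p in limma's test was 0.592 for each of them. The difference between experiments was tested for this comparison in a fit of the 8 condition-by-experiment means. It was -1.51 log2 for SESN2 and passed with blocks at an adjusted p of 0.0320 in limma's test, among 52 genes (0.326%), but without blocks no gene passed, SESN2 included. Leaving out the Nutlin_H2O library that stood apart gave SESN2 a difference of -1.18, at a blocked adjusted p of 0.0691 in limma's test, while TIGAR then passed with -1.06 at 0.0253, among 25 genes (0.157%). With blocks and limma-voom SESN2 passed among 35 genes (0.219%). With each library left out in turn, the log2 change over both experiments ran from -1.03 (without Nutlin_H2O replicate 1 of experiment 2) to -0.45 (without the library that stood apart) for SESN2, and from -0.65 (without Nutlin_Peg6 replicate 2 of experiment 2) to -0.13 (without Nutlin_H2O replicate 1 of experiment 1) for SESN1. For TIGAR it ran from -0.45 to -0.16 and for ACER2 from -0.74 to -0.34. The same test of a difference between experiments for Nutlin_H2O over DMSO_H2O called 0 of the 7, with blocks (0.0188% of all genes) or without (0%). There SESN2 differed by 1.03 log2, at a blocked adjusted p of 0.0969 in limma's test. Both comparisons use the Nutlin_H2O libraries.

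A direct test of whether the Nutlin-3a change was smaller with the peptide than with water is the interaction. It was below 0 for all 7 genes, from -0.05 log2 for SESN3 to -0.75 for SESN2, with a median of -0.54 against 0.01 over all genes. None of the 7 passed an adjusted p of 0.05 in limma's test (0% of all genes), nor with limma-voom with blocks (0.0251%) or without (0%). At an unadjusted p of 0.05, PRKAB1 (-0.50 ± 0.23, SE) and DRAM1 (-0.54 ± 0.22, SE) were below 0, against 0.113% of all genes. With blocks SESN1, SESN2 and ACER2 joined them, 5 of 7 against 0.984% of all genes.

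The remaining comparisons set peptide-treated cells against DMSO conditions. With the peptide and no Nutlin-3a, the mean log2 changes against DMSO_H2O ran from -0.06 for TIGAR to 0.21 for SESN1, SESN3 and ACER2. With each library left out in turn, ACER2 ran from 0.020 to 0.38 and SESN1 from 0.10 to 0.31. The lowest value of each was without DMSO_Peg6 replicate 2 of experiment 2. None had an unadjusted p under 0.05 in limma's test, where 0.0564% of all genes were higher and 0.0313% lower, and 0 genes passed the adjusted threshold (0%). SESN3 and PRKAB1 were higher in 5 of 5 pairs, as were 6.86% of all genes. For SESN3 this rests on the scaling. In unscaled RPM its replicate 1 of experiment 1 was at 2.19 in DMSO_Peg6 cells, against 2.23 in DMSO_H2O cells. With all 20 libraries, the 95% interval of the log2 change was widest for SESN3, -0.96 to 1.37, and narrowest for DRAM1, -0.23 to 0.43. A difference as large as the mean change with Nutlin-3a alone was outside this interval for SESN2, PRKAB1, DRAM1, ACER2 and TIGAR. That mean was taken as a fixed number, although it has its own error and shares the DMSO_H2O libraries with the interval. It also averages a larger change in experiment 1 and a smaller one in experiment 2, so this is no test of peptide against Nutlin-3a. Whether such a difference stays outside the interval with a library left out was not tested. ACER2 shows how replicates scattered at low level: it was at 2.17, 4.09 and 1.27 scaled RPM in DMSO_Peg6 cells of experiment 2, against 1.49, 2.18 and 2.14 in DMSO_H2O cells.

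Nutlin-3a in peptide-treated cells, Nutlin_Peg6 against DMSO_Peg6, gave mean log2 changes from -0.13 for SESN3 to 0.29 for SESN1, with none of the 7 past an unadjusted p of 0.05 in limma's test, where 0.119% of all genes were higher and 0.0439% lower, and none adjusted (0%). In experiment 1 SESN1, SESN2, PRKAB1 and ACER2 had both Nutlin_Peg6 libraries below both DMSO_Peg6 libraries, as did 20.1% of all genes. The experiments had opposite medians: the median log2 change of the 7 was -0.09 in experiment 1 and 0.36 in experiment 2. SESN1 in replicate 2 of experiment 2 is an example, with 32.0 scaled RPM in Nutlin_Peg6 cells against 15.0 in DMSO_Peg6 cells. Against DMSO_H2O cells, which had neither agent, all 7 mean log2 changes of Nutlin_Peg6 were above 0, from 0.08 for SESN3 to 0.50 for SESN1. SESN1 and PRKAB1 were higher in 5 of 5 pairs (3.5% of all genes), which rests on the scaling. In unscaled RPM of experiment 1, PRKAB1 was at 14.0 and 13.1 in Nutlin_Peg6 cells, against 14.2 and 14.6 in DMSO_H2O cells. SESN1 was at 6.43 against 6.45 there in replicate 1. With each library left out in turn, SESN1 ran from 0.18 to 0.60, ACER2 from 0.12 to 0.45 and PRKAB1 from 0.060 to 0.27 in that comparison. The lowest value of each was without Nutlin_Peg6 replicate 2 of experiment 2. SESN1 was the only gene of the 7 with a blocked p under 0.05 before adjustment there, 0.0135 in limma's test, where 1.67% of all genes were higher. Nutlin_Peg6 is compared with Nutlin_H2O, DMSO_Peg6 and DMSO_H2O in turn, so these comparisons share libraries.

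The 7 genes also differed in how they varied between replicate numbers in experiment 2. SESN3 averaged 11.5 scaled RPM over the 4 libraries of replicate 1, 4.76 over those of replicate 2 and 1.63 over those of replicate 3, a 7.06-fold spread that exceeded that of 95.8% of all genes. SESN2 ran the other way, with 12.7 in replicate 1, 31.2 in replicate 2 and 33.4 in replicate 3, and SESN1 was highest in replicate 2, at 22.3. DRAM1 varied least, 1.21-fold, and the median gene 1.79-fold. In experiment 1 the spread between replicate numbers was 1.04- to 1.46-fold, and that of the median gene 1.18-fold. The 1.46-fold spread was that of SESN1 and exceeded that of 96.0% of all genes. Experiment 1 has 2 replicate numbers and experiment 2 has 3, so the spreads of the experiments are not measured alike. The ratio of Nutlin_H2O to DMSO_H2O was also smallest in replicate 3 of experiment 2 for SESN1, SESN2, PRKAB1, DRAM1, ACER2 and TIGAR, at 1.10, 1.18, 1.23, 1.23, 1.01 and 1.13, and for CDKN1A and MDM2, at 1.23 and 1.13. What sets the replicate numbers apart is not given in the labels.

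**Figure D3:**
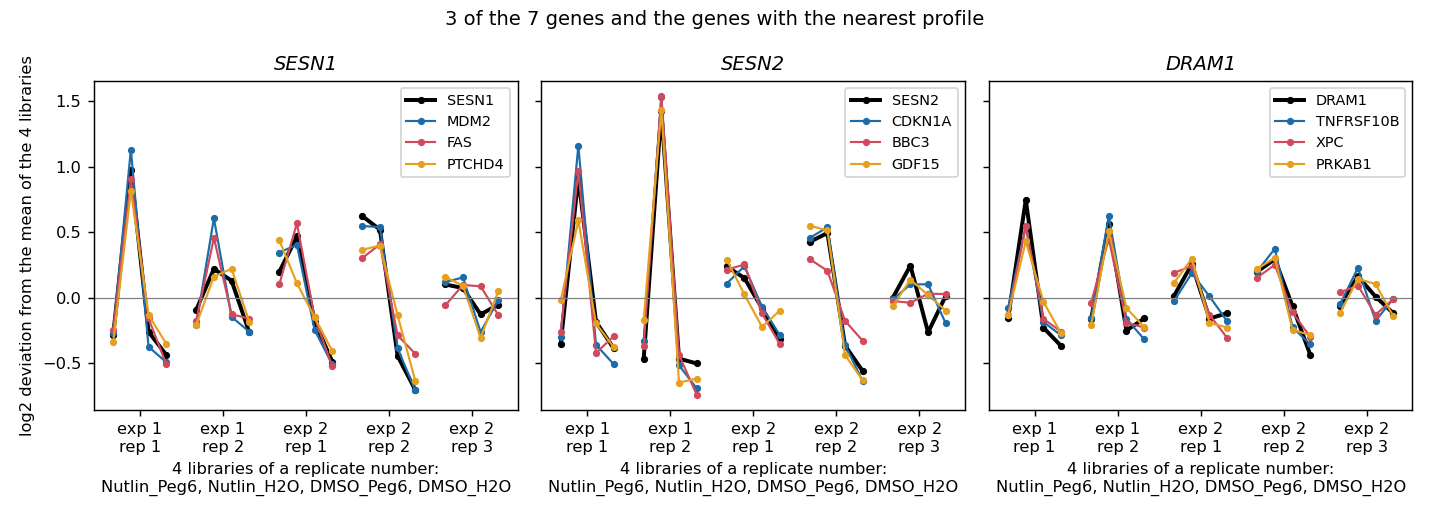
Log2 deviation of SESN1, SESN2 and DRAM1 (black) and of the 3 genes with the nearest profile (colours) from the mean of the 4 libraries with the same experiment and replicate number; within each number the libraries run Nutlin_Peg6, Nutlin_H2O, DMSO_Peg6, DMSO_H2O. On these scaled values, every plotted gene is highest in Nutlin_H2O in replicate 1 of experiment 1. In replicate 2 SESN2 and its neighbours are higher still there, while SESN1 and its neighbours are lower than in replicate 1. The further rise of SESN2 is smaller in unscaled RPM.

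The genes most like each of the 7 were taken as the 3 tested genes with the smallest root mean square difference over the 20 libraries, on log2 deviations from the mean of each replicate number. Nearest to SESN1, whose own root mean square deviation was 0.408, were MDM2 (0.131), the death receptor gene FAS (0.154) and PTCHD4 (0.158). Nearest to SESN2 (own value 0.502) were CDKN1A (0.143), the BH3-only gene BBC3 (0.162) and the secreted cytokine gene GDF15 (0.169). These lists share no gene, and their profiles part in the Nutlin_H2O library that stood apart. There SESN2 was at 57.6 against 36.4 scaled RPM in replicate 1 and CDKN1A at 180.2 against 118.4, while SESN1 was at 8.38 against 19.3 and MDM2 at 262 against 469. The rise of SESN2 and CDKN1A was smaller in unscaled RPM, at 39.5 against 33.3 and 123 against 108. SESN1 was then at 5.74 against 17.6 and MDM2 at 180 against 429. Nearest to ACER2 were MDM2 (0.147), the translesion polymerase gene POLH (0.147) and PTCHD4 (0.171). Nearest to DRAM1 were the death receptor gene TNFRSF10B (0.105), the DNA damage sensor gene XPC (0.107) and PRKAB1 (0.118). XPC was also among the 3 nearest to PRKAB1 (0.104) and TIGAR (0.111), each with ZNF79 (0.108 and 0.0992). Those nearest to SESN3 were TBC1D8B (0.0924), CDK17 (0.0947) and PHIP (0.0954), none of them near any other of the 7. The tested value of TNFRSF10B was a log2 change of 0.62 ± 0.13 (SE) in Nutlin_H2O over DMSO_H2O cells and -0.41 ± 0.13 in Nutlin_Peg6 over Nutlin_H2O cells, and neither passed adjustment.

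The pathways around the 7 genes were followed with 4 lists of other genes, and none of their genes was called in any of the 6 comparisons at an adjusted or an unadjusted p of 0.05 in limma's test. Of all genes, 0% passed the adjusted threshold, and at most 0.445% were higher and 0.282% lower at the unadjusted one in any comparison. With shares this small, 0 in lists of this size says little about the pathways. Of 39 tested sestrin and AMPK partners, which hold the AMPK subunits, GATOR, KICSTOR, Rag and mTORC1 genes, the median log2 change was -0.03 in Nutlin_H2O over DMSO_H2O cells and 0.04 in Nutlin_Peg6 over Nutlin_H2O cells. The 39 autophagy genes had medians of -0.04 and 0.08, the 29 ceramide and sphingosine genes 0.02 and 0.02, and the 26 glycolysis and pentose phosphate genes -0.05 and 0.08, against -0.02 and 0.04 over all genes. With blocks, the unadjusted p was under 0.05 in Nutlin_H2O over DMSO_H2O cells for 0 sestrin and AMPK partners, 1 autophagy gene (higher), 1 ceramide gene (higher) and 1 glycolysis gene (lower), and 0 were called; 3.5% of all genes were higher and 3.77% lower. Close relatives of the 7, named here after their values were known, stayed within 1 SE of 0 in that comparison. The AMPK beta-2 subunit gene PRKAB2 was at 0.07 ± 0.18 (SE) log2, DRAM2 at -0.06 ± 0.23, and the ceramidase gene ACER3 at -0.02 ± 0.19.

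**Figure D4:**
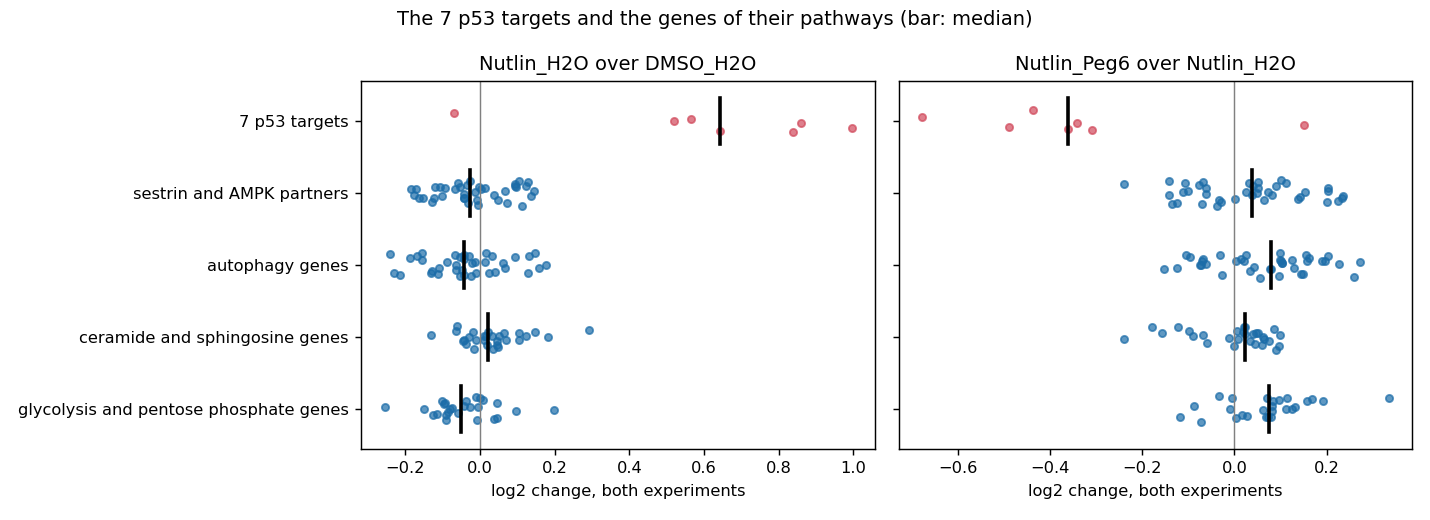
Log2 change over both experiments for the 7 p53 targets and for each tested gene of 4 pathway lists, in Nutlin_H2O over DMSO_H2O cells and in Nutlin_Peg6 over Nutlin_H2O cells; each point is a gene and bars are medians. The medians of the 7 genes are 0.64 and -0.36, while those of the lists lie between -0.05 and 0.08.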

How the data were processed

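The authors deposited 1 table per experiment with 26485 rows, each a RefSeq isoform standing for its symbol. Per the submitters' processing notes the tools were HISAT2, bedtools and limma and the build hg38. Strand handling is not given in the sources used here, so reads of a gene and an antisense partner could not be separated; no other row overlaps any of the 7. The deposited values are a signal: the authors' RPM divided by the row's stop coordinate minus a thousandth of its start. Multiplying by that divisor gave RPM (reads per 1e6 row reads) and, within 0.001, whole reads for all values. The isoform row differed between tables for 1491 symbols, none of the 7.

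RPM were scaled by a trimmed mean of M values (30% of log ratios and 5% of abundances trimmed), and 0.5 was added before log2, which understates changes of low genes. Limma 3.58.1 with trend in R 4.3.3 tested 15958 genes, those averaging 0.5 RPM or more, with terms for condition and experiment over all 20 libraries, 5 per condition; all 7 genes passed this filter. Benjamini-Hochberg adjustment ran over all genes tested, per comparison. The scripts were tested on simulated data. Same-numbered libraries pair, by the data: their deviations from the group means correlated at 0.286 to 0.585 (experiment 1) and 0.877 to 0.940 (experiment 2). Alternatives were scaling, filter, pseudocount, limma-voom on the recovered reads, replicate blocks, library weights, single experiments, structural RNA rows removed and each library left out. Fold changes are 2 to the fitted log2 change. Promoter windows are from RefSeq; all 7 genes matched by symbol. Beyond the 7, the rule named CDKN1A and MDM2, called genes of the lists (none), the 2 list genes of smallest unadjusted p under 0.05 (none), and the 3 nearest profiles where closer than 0.5 of a gene's own deviation. Figures were drawn with matplotlib 3.10.9. The 7 genes, the pathway lists, the likeness rule and the alternatives were chosen with earlier results of these data known.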

Additional observations from a re-analysis of the deposited data

Results flagged for a closer look

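SESN2 differed between the experiments in the peptide's change under Nutlin-3a: the log2 change of Nutlin_Peg6 over Nutlin_H2O was -1.58 in experiment 1 and -0.08 in experiment 2, a difference of -1.51 that passed limma's test with replicate blocks at an adjusted p of 0.0320. It did not pass without blocks. The change of SESN2 in Nutlin_H2O over DMSO_H2O cells, which shares the Nutlin_H2O libraries, differed by 1.03 between the experiments. That difference had a blocked adjusted p of 0.0969 in limma's test.

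In Nutlin_Peg6 over DMSO_Peg6 cells, SESN1, SESN2 and ACER2 were lower in both pairs of experiment 1 and higher in all 3 pairs of experiment 2. Some ratios of experiment 1 were close to 1: they were 0.984 and 0.848 for SESN1, 0.886 and 0.998 for SESN2 and 0.887 and 0.941 for ACER2. How many of all genes had this pattern of signs was not counted. Experiment 1 minus experiment 2 was -0.68 for SESN1, -0.54 for SESN2 and -0.48 for ACER2 on the log2 scale. In limma's test of that difference the blocked adjusted p was 0.405, 0.402 and 0.532, so none passed.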

How the results depend on the processing

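The number of the 7 genes called was 0 in all 6 comparisons, and stayed 0 with other scalings, filters, pseudocounts, unblocked limma-voom, structural RNA rows removed and each library left out (range 0 to 0). Treating the replicate number as a block and changing nothing else also left it at 0. In Nutlin_H2O over DMSO_H2O cells it was 3 where blocks went with limma-voom (0.094% of all genes) and 2 where they went with library weights (0.194%). The number of the 7 that differed between experiments in Nutlin_Peg6 over Nutlin_H2O cells was 1 with replicate blocks (0.326% of all genes), 1 with blocks and limma-voom (0.219%), and 1 (TIGAR in place of SESN2) with blocks and without the library that stood apart (0.157%). The block changed no other call. The cause was not tested.

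SESN3 turned sign most often. Its log2 change in Nutlin_H2O over DMSO_H2O cells was 0.084 with library weights and blocks, 0.12 in experiment 2 alone and 0.10 with blocks without the library that stood apart, and -0.44 to 0.27 with each library left out. In Nutlin_Peg6 over Nutlin_H2O cells it was -0.027 with blocks without that library and -0.14 to 0.51 with each left out. Other ranges for SESN3 with each library left out were -0.16 to 0.55 in DMSO_Peg6 over DMSO_H2O, -0.43 to 0.23 in Nutlin_Peg6 over DMSO_Peg6, -0.29 to 0.44 in Nutlin_Peg6 over DMSO_H2O and -0.40 to 0.31 in the interaction. In experiment 1 alone, with or without blocks, values with the other sign were -0.0039 for SESN3 and -0.0082 for DRAM1 in DMSO_Peg6 over DMSO_H2O, -0.12 for SESN1, -0.081 for SESN2, -0.11 for PRKAB1 and -0.12 for ACER2 in Nutlin_Peg6 over DMSO_Peg6, -0.060 for SESN3 and -0.087 for TIGAR in Nutlin_Peg6 over DMSO_H2O, and 0.27 for SESN3 in the interaction. In experiment 2 alone TIGAR was at 0.039 in Nutlin_Peg6 over Nutlin_H2O and at 0.071 in the interaction. With 1 library left out, SESN2 in DMSO_Peg6 over DMSO_H2O ran from -0.14 to 0.30, and in Nutlin_Peg6 over DMSO_Peg6 PRKAB1 ran from -0.081 to 0.13, ACER2 from -0.083 to 0.35 and SESN1 from -0.027 to 0.39. The fewest reads in a library were 30 for ACER2 and 35 for SESN3.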
